A study of Mus musculus with 6 samples.

Results

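A set of 32 myeloid marker genes was followed in cultures of primary mouse embryonic fibroblasts (MEFs), as a gauge of non-fibroblast RNA in each culture. Members were taken by gene symbol from the expression table, and 31 of the 32 symbols matched a row among 26898 genes. Lyz1, the intestinal relative of the macrophage lysozyme Lyz2, was the symbol with no row, so its expression was not analysed here. The WT group consisted of Kansl1 fl/fl cells, and the KO group of Kansl1 fl/fl/CAG-cre cells, in which tamoxifen switches on Cre recombinase under the broadly active CAG promoter. Both groups were C57BL/6 cells at passage 3 in medium with 10% FBS per the labels, and both were given 1 μM tamoxifen over 48 h before 2 μg RNA was taken from each sample. For MEFs in general, the study methods state more serum than that. Each group held 3 samples, WT 4, 5 and 8 and KO 3, 7 and 10, which the study methods call biological replicates from embryos. No Cre control with intact Kansl1 was analysed here, so KO MEFs differ from WT MEFs in Cre as well as Kansl1.

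Macrophages of the embryo arise from blood precursors and settle in connective tissue, so tissue dispersed for fibroblast culture can carry them along. Their identity depends on the transcription factor PU.1, encoded by Spi1, and their survival on the receptor CSF1R, whose ligand CSF1 is made by stromal cells such as fibroblasts. Mature macrophages take up and digest particles, and they are known for lysozyme, complement C1q, Fc receptors that signal through the adaptors FCER1G and TYROBP, and lysosomal proteases.

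Depth, recovered as whole reads from the TPM values (reads divided by gene length and scaled to one total per sample), lay between 17654338 (KO 3) and 27716119 (KO 7) reads assigned to genes per sample. Kansl1, the targeted gene, stood at 28.5, 26.7 and 24.4 TPM in WT 4, 5 and 8, against 13.7, 15.8 and 14.4 TPM in KO 3, 7 and 10, so that every KO sample lay below every WT sample, as the labels require. The fall in its mean, to 55.1% of WT, had a log2 fold change of -0.82 (SE 0.11, limma adjusted p = 0.000859). The summed level of 15 fibroblast markers was between 12120 and 17270 TPM in WT and between 13060 and 16970 TPM in KO samples, so the labelled cell type was borne out in all 6 libraries. A gene was called changed at an adjusted p under 0.005 and a log2 fold change beyond 0.5 in either direction, the thresholds of the study, among 14799 genes with a group mean of at least 1 TPM.

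The summed level of the 31 markers was higher in each KO library than in any WT library. WT 4, 5 and 8 summed to 73.0, 70.1 and 83.5 TPM, against 130.8, 144.3 and 256.3 TPM in KO 3, 7 and 10. The groups did not overlap, and KO 10 stood well above the other KO libraries. The group means were 75.5 ± 7.03 TPM in WT and 177.1 ± 68.9 TPM in KO MEFs (SD, n = 3 each), a ratio of 2.35, which was 1.82 without KO 10. Lyz2 alone made up 27.7% to 43.2% of the sum in each library. Without Lyz2, Cd36 and Gpnmb, a lysozyme and a pair of genes that cells outside the myeloid lineage also express, the means were 43.4 ± 7.57 TPM in WT and 90.9 ± 34.6 TPM in KO MEFs (SD, n = 3). These are small parts of each transcriptome, resting on 1373 to 1778 marker reads per WT library and 1979 to 4519 per KO library. In bulk RNA, more cells of a type and more RNA per cell cannot be told apart.

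**Figure D1:**
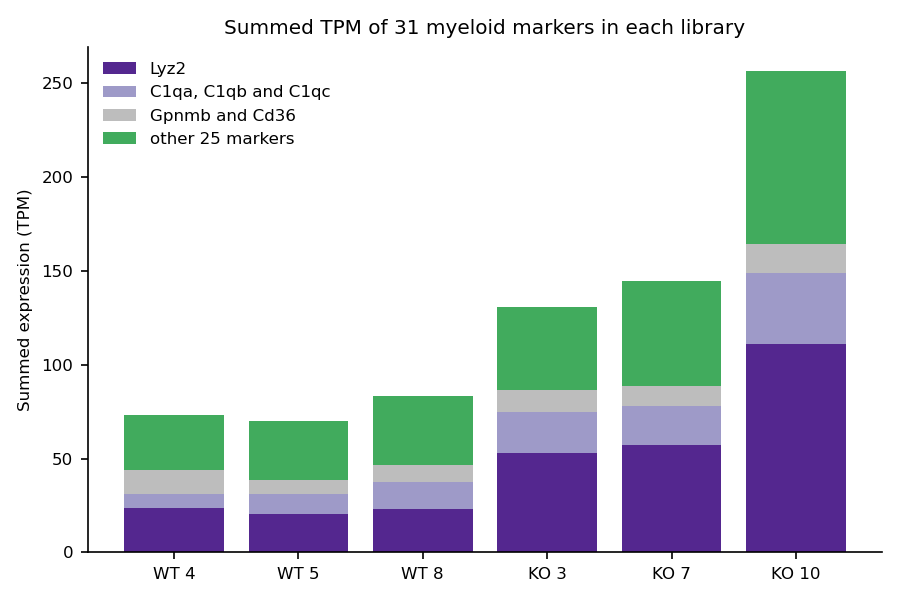
Summed TPM of the 31 markers (vertical axis) in each of the 6 libraries, as stacked bars for Lyz2, the 3 C1q genes, Gpnmb with Cd36, and the other 25 markers. The bars reach 70.1 to 83.5 TPM in WT and 130.8 to 256.3 TPM in KO libraries, with KO 10 the tallest.

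Across single markers the direction was shared. The KO mean lay above the WT mean for 31 of 31 markers, against 47.8% of all genes in the table. Without KO 10, the ratio of means fell under 1 for Fcgr3 (0.96), Coro1a (0.947) and Cd14 (0.971). In 13 of the 31, the KO samples were all above the WT samples, where 10.4% of all genes in the table showed such separation, and in 0 were they all below. The ratio of group means ran from 1.07 for Cd14 to 3.97 for C1qc, with a median of 2.21 (1.60 without KO 10). KO 10 had the highest value of the 6 samples for 29 markers, against 13.0% of all genes, and KO 7 for the other two, Cd52 and Aif1. KO 10 exceeded every WT sample for 30 markers, KO 7 for 23 and KO 3 for 16. The 13 markers that separated the groups were also the 13 for which both KO 3 and KO 7 exceeded every WT sample, so this count was the same without KO 10, where the share of all genes in the table was 13.7%. Relative to the WT mean of each gene, the median marker stood at 0.84, 0.96 and 1.19 in WT 4, 5 and 8 and at 1.35, 1.71 and 3.22 in KO 3, 7 and 10. WT libraries thus differed among themselves as well, and WT 8 held the highest WT value for 19 of the 31 markers.

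**Figure D2:**
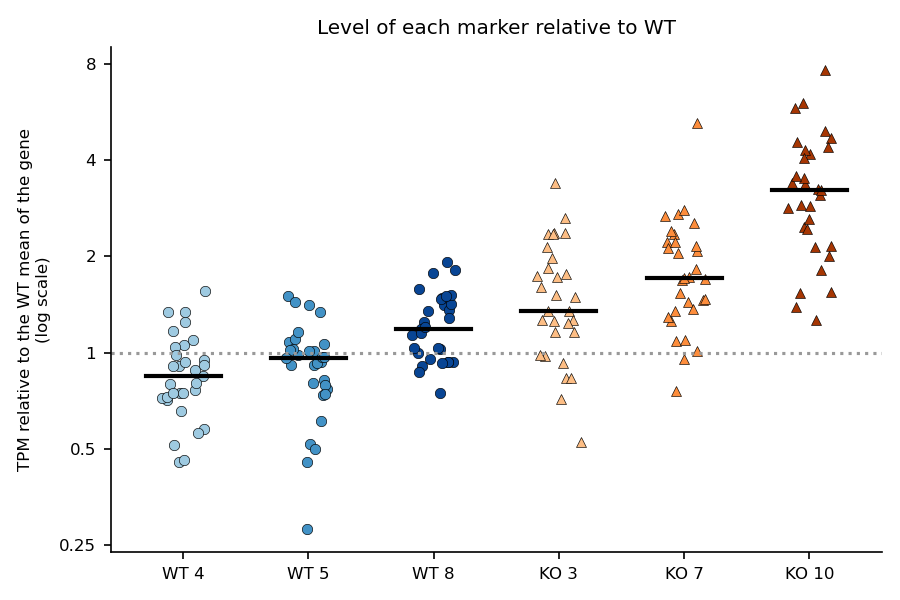
TPM of each marker divided by its WT mean (vertical axis, log scale) in the 6 libraries, with 1 point for each of the 31 markers and a bar at the median; Aif1, at 0 TPM in WT 8 and KO 3, has no point there. The medians are 0.84, 0.96 and 1.19 in the WT libraries and 1.35, 1.71 and 3.22 in the KO libraries, and the KO points spread widely.

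Of the 31 markers, 20 reached the level needed for testing and 11 did not. Adgre1, Mrc1 and Cd36 passed only through the KO group. In limma's fit across all tested genes, 2 markers were called higher in KO MEFs, Lyz2 and C1qc, where 1.64% of all tested genes were called higher. No marker was called lower in limma, while 9.03% of all tested genes were. The count of lower markers was also 0 at an unadjusted p under 0.05 (27.2% of all tested genes) and with voom on recovered reads (12.6% of the genes it tested). At that unadjusted p, 13 of the 20 markers were higher, Adgre1 and Mrc1 among them, against 12.2% of all tested genes. At the looser adjusted p under 0.05, 12 of the 20 markers passed with a log2 fold change over 0.5, where 4.69% of all tested genes did. Leaving aside Adgre1, Mrc1 and Cd36, which were tested only because of their KO level, 10 of 17 passed it. The median log2 fold change of the tested markers was 0.82 (0.83 over those 17), beside -0.07 for all tested genes. When all 26898 genes were tested without the filter on low expression, 0 markers were called, against 0.204% of all genes called higher, and the adjusted p of Lyz2 was 0.013 and that of C1qc 0.0187.

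**Figure D3:**
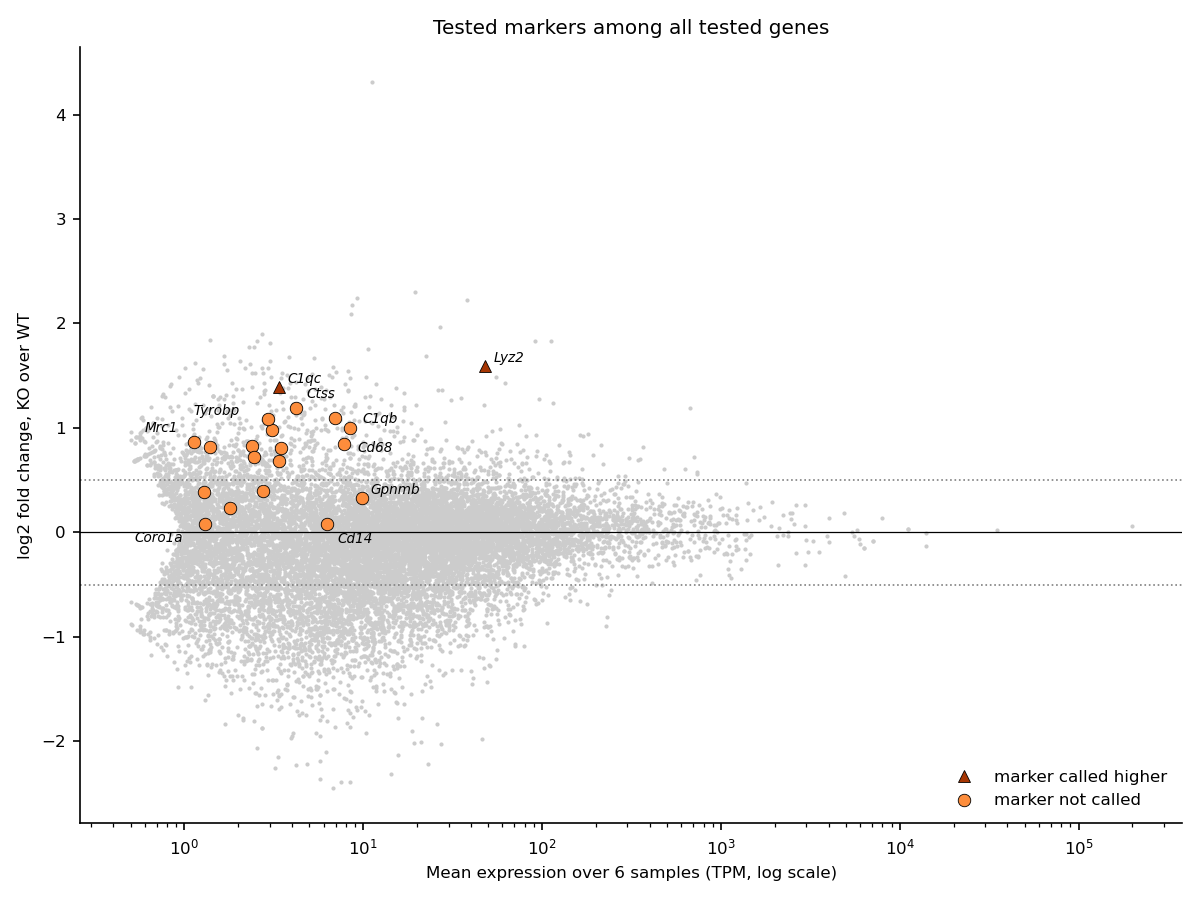
The log2 fold change of KO over WT (vertical axis) against mean TPM over the 6 samples (horizontal axis, log scale) for the 14799 tested genes (grey) and the 20 tested markers (10 of them named), with triangles for the 2 markers called higher and dotted lines at 0.5 and -0.5. Each of the 20 markers lies above 0, from 0.08 for Cd14 and Coro1a to 1.59 for Lyz2.

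Lyz2 encodes the lysozyme of macrophages and neutrophils, an enzyme that cuts bacterial cell walls, and it was the most abundant marker per length in every library. The gene (ENSMUSG00000069516.8) lies at chr10:117277331-117282321 on the minus strand (mm10). WT 4, 5 and 8 held 23.8, 20.6 and 23.1 TPM, against 53.1, 57.0 and 111 TPM in KO 3, 7 and 10. WT values were tightly grouped, and the lowest KO value was still more than any WT value. Mean expression rose from 22.5 ± 1.67 to 73.6 ± 32.3 TPM (SD, n = 3), or 3.27-fold, with a log2 fold change of 1.59 (SE 0.24, limma adjusted p = 0.00142). Without KO 10 the log2 fold change was 1.26 and the adjusted p 0.00043. These values rest on 238 to 288 reads per WT sample and 508 to 1302 per KO sample. Lyz2 and Lyz1 are near-identical, with 96.0% of 1262 aligned transcript bases shared, and of the Lyz2 stretches of 50 bases 15.4% also occur in Lyz1 (1.97% of stretches of 100 bases). The Lyz2 value is uncertain to the extent that reads matched both genes, and the part of Lyz1 in it was not tested.

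The C1q genes encode the 3 chains of C1q, the recognition molecule of the classical complement pathway, which tissue macrophages are the main cells to make. They lie side by side on chromosome 4 on the minus strand, C1qa at chr4:136895917-136898803, C1qc at chr4:136889804-136893065 and C1qb at chr4:136880129-136886187. C1qc (ENSMUSG00000036896.5) was at 1.15, 1.24 and 1.69 TPM in WT 4, 5 and 8 and at 4.63, 3.69 and 7.89 TPM in KO 3, 7 and 10. The groups were well apart, with more than the whole WT range between them. C1qc rose from 1.36 ± 0.291 to 5.40 ± 2.21 TPM (SD, n = 3), the largest ratio among the markers at 3.97, with a log2 fold change of 1.39 (SE 0.24, limma adjusted p = 0.00251). Its read counts were 18, 21 and 31 in WT and 65, 69 and 136 in KO samples. Without WT 4, WT 5, WT 8 or KO 3, the adjusted p of C1qc was 0.00628, 0.00585, 0.00538 or 0.0106, beyond the threshold of 0.005, and the adjusted p was 0.0053 with median-of-ratios scaling.

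C1qa and C1qb separated the groups by less. C1qa was at 2.37, 4.17 and 5.78 TPM in WT 4, 5 and 8 and at 7.14, 8.44 and 13.9 TPM in KO 3, 7 and 10. The WT samples spread widely, and the gap to the KO samples was smaller than that spread. The log2 fold change of C1qa was 1.09 (SE 0.28, limma adjusted p = 0.0176), short of the study's threshold. C1qb was at 3.74, 4.93 and 7.17 TPM in WT and at 9.73, 8.92 and 16.4 TPM in KO samples, with a log2 fold change of 1.00 (SE 0.25, limma adjusted p = 0.0146). With a filter of 10 TPM in place of 1, which C1qb passed only through its KO level, it was called (limma adjusted p = 8.94e-05). In both genes WT 4 was the lowest sample and KO 10 the highest.

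Promoter sequences show a short stretch that some of these genes share. PU.1 binds purine-rich sites with a GGAA core, and AGGAAGT is a short form of its motif. These letters were found in 11 of 29 marker promoters (37.9%), against 9.35% of all 32851 promoters of the same 300 bases. The 11 belong to 10 of the 25 markers present in the promoter set searched, and the remaining markers were not searched. The windows below are shown because they compare the called genes Lyz2 and C1qc with Lyz1, C1qb and Mrc1. Each runs 5′ to 3′ on the gene's strand and holds the match in capitals, in its reverse-complement form, with 30 bases on either side (RefSeq, GRCm38.p6). Lyz2 is at chr10:117282336-117282402, Lyz1 at chr10:117292932-117292998, C1qc at chr4:136893073-136893139 and C1qb at chr4:136886217-136886283, all on the minus strand, and Mrc1 at chr2:14229173-14229239 on the plus strand.
Lyz2: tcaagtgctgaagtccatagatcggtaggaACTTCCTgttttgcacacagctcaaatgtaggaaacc
Lyz1: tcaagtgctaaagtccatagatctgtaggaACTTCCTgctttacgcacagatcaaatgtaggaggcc
C1qc: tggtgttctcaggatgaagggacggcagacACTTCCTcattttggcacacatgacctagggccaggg
C1qb: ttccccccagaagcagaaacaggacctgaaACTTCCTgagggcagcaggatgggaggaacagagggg
Mrc1: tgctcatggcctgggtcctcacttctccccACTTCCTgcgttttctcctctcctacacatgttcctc

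The first base of the match lay 100 bases before the RefSeq start in both lysozyme genes, whose windows differ at 8 of 67 positions, and 195, 53 and 211 bases before it in C1qc, C1qb and Mrc1. These RefSeq starts differ from the GENCODE gene ends given above for Lyz2, C1qc and C1qb. Each of the 11 marker promoters held the match as ACTTCCT on the gene's strand, and 1 of them also held AGGAAGT, while over all promoters 1514 held the former and 1639 the latter. Both strands were searched for 5 motifs in all, of which AGGAAGT was chosen for display after the counts had been seen. The longer PU.1 form GAGGAAGT, which contains AGGAAGT, was in 4 marker promoters (13.8%, against 3.2% of all promoters), and the shorter GAGGAA, which overlaps both, in 16 (55.2% against 28.3%). TTGCGCAA, the palindrome bound by C/EBP factors, was in 0 marker promoters and 0.183% of all. TGANTCA, the AP-1 motif, was in 5 (17.2% against 7.81%). A match is a run of letters and not a measured binding site, and no binding was measured here.

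Csf1r encodes the receptor for CSF1 and IL-34, on which macrophage survival depends. WT 4, 5 and 8 held 1.48, 1.09 and 1.68 TPM, against 2.26, 3.13 and 4.77 TPM in KO 3, 7 and 10. Every KO sample was above every WT sample. The log2 fold change of Csf1r was 0.83 (SE 0.23), and its limma adjusted p of 0.0229 did not pass the study's threshold. Exons of Csf1r overlap the opposite-strand gene Hmgxb3 over 15.1% of their length, and the library kit does not mark strand, so reads from the shared part cannot be told apart.

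Spi1, which encodes PU.1, stayed under the filter. It was at 0.275, 0.550 and 0.274 TPM in WT 4, 5 and 8 and at 0.867, 0.460 and 1.66 TPM in KO 3, 7 and 10. KO 7 lay within the WT range, so the groups overlapped. The counts behind these levels were 6 to 13 reads in WT and 12 to 40 in KO samples.

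Among Fc receptors and their adaptors, the log2 fold changes of the adaptor genes were larger than that of Fcgr3, the 1 receptor that could be tested, and this difference was not tested. Tyrobp encodes DAP12, the signalling partner of TREM2 and other receptors. It was at 1.85, 1.20 and 1.42 TPM in WT 4, 5 and 8 and at 3.92, 3.10 and 6.21 TPM in KO 3, 7 and 10. The groups did not overlap, and the log2 fold change of 1.09 (SE 0.22) came with an adjusted p of 0.00632 in limma, just beyond the threshold. Fcer1g, the shared signalling chain of Fc receptors, was at 1.69, 1.83 and 3.14 TPM in WT and at 3.30, 3.78 and 7.18 TPM in KO samples. WT 8 nearly reached KO 3 for Fcer1g, and the log2 fold change was 0.81 (SE 0.26, limma adjusted p = 0.0466), which was 0.52 without KO 10. Fcgr3, a low-affinity IgG receptor, was at 1.42, 1.64 and 1.52 TPM in WT and at 1.27, 1.67 and 3.29 TPM in KO samples. For Fcgr3 only KO 10 stood clear of WT, and the log2 fold change of 0.23 (limma adjusted p = 0.514) turned to -0.039 without KO 10 and was 0.42 without KO 3. Fcgr1, Fcgr2b and Trem2 were under the filter, at 1 to 23 reads per WT sample and 2 to 26 per KO sample, and their groups overlapped.

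The pan-leukocyte genes ranged from separated to interleaved groups, and the differences between these genes were not tested. Laptm5, a lysosomal membrane protein gene of blood cells, was at 1.34, 1.78 and 1.89 TPM in WT 4, 5 and 8 and at 3.30, 3.05 and 7.19 TPM in KO 3, 7 and 10. The groups were clearly apart for Laptm5, with a log2 fold change of 0.98 (SE 0.26, limma adjusted p = 0.0212). Ptprc, which encodes the leukocyte antigen CD45, was at 0.0876, 0.0872 and 0.0921 TPM in WT and at 0.113, 0.0902 and 0.257 TPM in KO samples. It was under the filter, on 13 to 16 reads per WT sample and 15 to 42 per KO sample, and KO 10 was the sample that stood out. Cd53, a leukocyte tetraspanin gene, was at 1.13, 2.23 and 3.27 TPM in WT and at 1.58, 3.79 and 4.44 TPM in KO samples. The groups interleaved for Cd53, and its log2 fold change was 0.40 (SE 0.32, limma adjusted p = 0.389). For Cd53, that value was 0.13 without WT 4 and 0.19 without KO 10, but 0.63 without WT 8 and 0.73 without KO 3. Coro1a, which encodes an actin-binding coronin of blood cells, was at 0.887, 1.64 and 1.14 TPM in WT and at 0.642, 1.67 and 1.89 TPM in KO samples. KO 3 was the lowest sample for Coro1a, and the log2 fold change was 0.08 (SE 0.26, limma adjusted p = 0.837). Leaving out KO 10, WT 4 or KO 7 turned the Coro1a value to -0.071, -0.026 or -0.013, and leaving out WT 5 or KO 3 gave 0.22 or 0.34. Cd52, a lymphocyte and macrophage surface peptide gene, had 3 to 8 reads in each sample.

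Of the macrophage surface and cytoplasmic markers, Adgre1 and Mrc1 had WT means under 1 TPM and entered the test through the KO group. Adgre1 encodes F4/80, the classical mouse macrophage antigen. It was at 0.343, 0.775 and 1.14 TPM in WT 4, 5 and 8 and at 1.61, 2.10 and 2.42 TPM in KO 3, 7 and 10. The groups did not overlap, on 9 to 35 reads per WT sample and 38 to 70 per KO sample, and the log2 fold change was 0.81 (SE 0.23, limma adjusted p = 0.0249). Adgre1 was also among the markers on which KO 10 stood out least, at 1.30 times the mean of the other KO samples. Mrc1, the mannose receptor gene of tissue macrophages, was at 0.387, 0.358 and 0.712 TPM in WT and at 1.14, 1.30 and 2.94 TPM in KO samples. KO values exceeded WT values throughout for Mrc1, with a ratio of means of 3.69 and a log2 fold change of 0.86 (SE 0.27, limma adjusted p = 0.0376).

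Mpeg1 encodes perforin-2, a pore-forming protein of phagocytes. It was at 1.71, 2.21 and 2.94 TPM in WT 4, 5 and 8 and at 2.82, 3.91 and 6.59 TPM in KO 3, 7 and 10. KO 3 fell just inside the WT range, and the log2 fold change of Mpeg1 was 0.68 (SE 0.25, limma adjusted p = 0.0723), which became 0.41 without KO 10. Cd14, a co-receptor for lipopolysaccharide that MEFs themselves can express, was at 7.05, 5.60 and 5.48 TPM in WT and at 5.95, 5.78 and 7.63 TPM in KO samples. It was the marker with the smallest ratio of means, 1.07, and its log2 fold change of 0.08 (SE 0.15, limma adjusted p = 0.724) became -0.030 without KO 10 and lay between 0.02 and 0.18 with any other sample left out. Cx3cr1, Ms4a7 and Aif1 were under the filter. Cx3cr1, the fractalkine receptor gene, was at 0.219, 0.152 and 0.375 TPM in WT and at 0.336, 0.596 and 0.870 TPM in KO samples, and KO 3 overlapped WT. Ms4a7, a tetraspan membrane protein gene of macrophages, had 5 to 9 reads per WT sample and 5 to 30 per KO sample, with KO 7 and KO 10 above every WT sample and KO 3 within the WT range. Aif1 had 0 to 4 reads in any sample. Neither gene was tested.

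**Figure D4:**
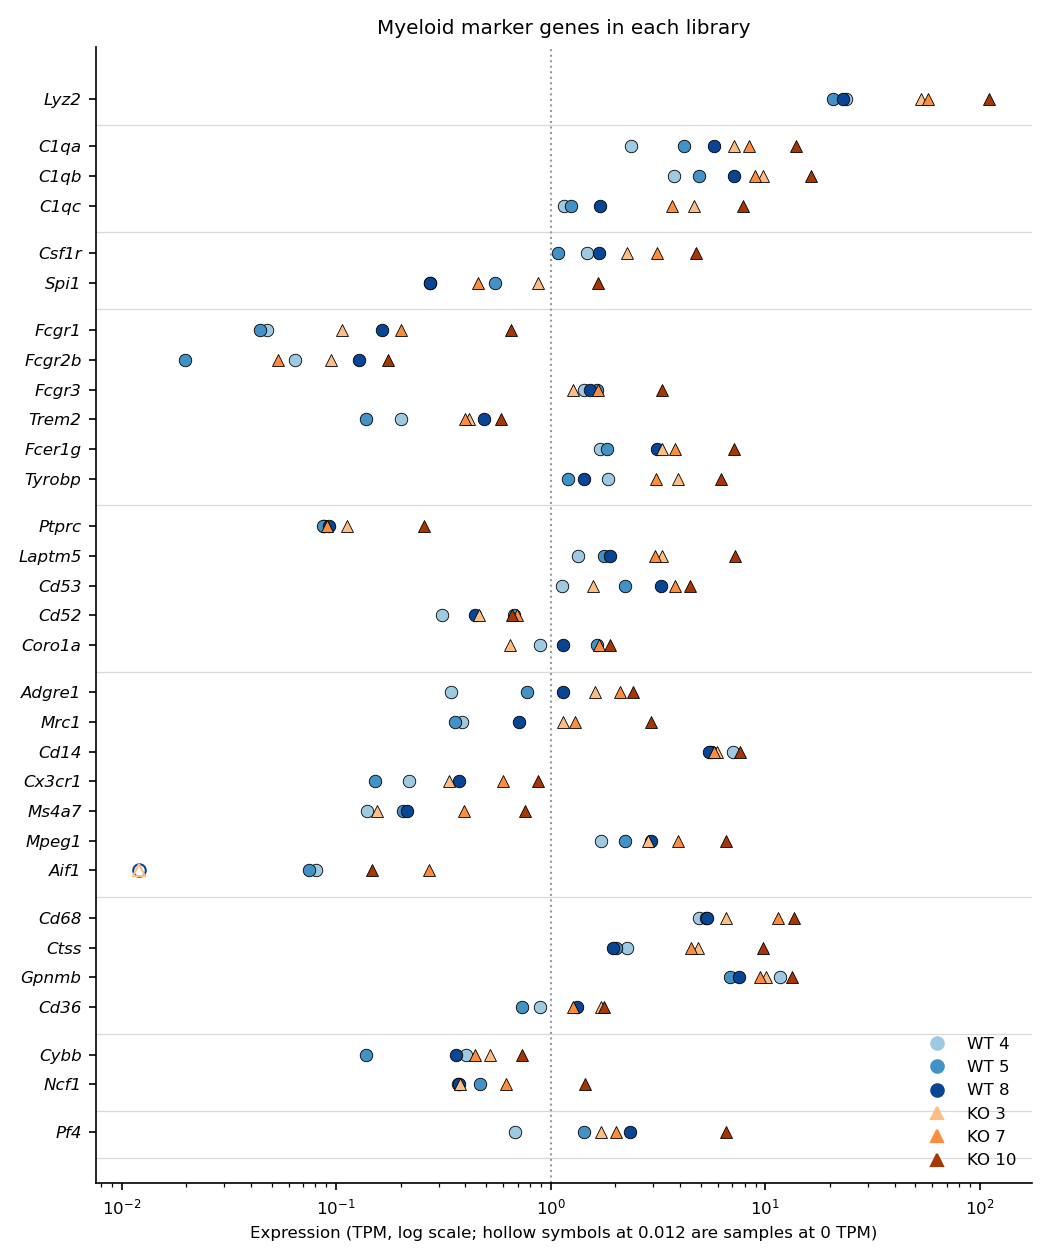
TPM (horizontal axis, log scale) of each of the 31 markers in the 6 libraries, grouped by role, with circles for WT and triangles for KO samples and a dotted line at 1 TPM. Triangles lie to the right of all circles in 13 rows, KO 10 is rightmost in 29, and Lyz2 sits far above the rest.

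Lysosome and scavenger genes held both separated and overlapping members. Ctss encodes cathepsin S, a protease of antigen-presenting cells. It was at 2.27, 2.02 and 1.94 TPM in WT 4, 5 and 8 and at 4.86, 4.48 and 9.73 TPM in KO 3, 7 and 10. WT samples were close together and the groups far apart, and the log2 fold change of 1.19 (SE 0.24) came to an adjusted p of 0.00581 in limma, just beyond the threshold. With a pseudocount of 0.1, Ctss was called as well. Cd68, a lysosomal glycoprotein gene of macrophages, was at 4.91, 5.26 and 5.37 TPM in WT and at 6.56, 11.5 and 13.5 TPM in KO samples. KO 3 was near the WT samples for Cd68, with KO 7 and KO 10 well above, with a log2 fold change of 0.85 (SE 0.22, limma adjusted p = 0.0173). Cd68 was called without KO 3, and also with a filter of 10 TPM, which it passed only through its KO level.

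Gpnmb encodes a lysosomal glycoprotein that melanocytes and osteoblasts also make, and Cd36 a fatty acid and scavenger receptor of adipocytes and endothelium as well. Gpnmb was at 11.7, 6.85 and 7.53 TPM in WT 4, 5 and 8 and at 10.1, 9.49 and 13.3 TPM in KO 3, 7 and 10. WT 4 exceeded both KO 3 and KO 7, and the log2 fold change was 0.33 (SE 0.19, limma adjusted p = 0.247). For Gpnmb it came to 0.54 without WT 4, but to 0.19 without either WT 5 or KO 10. Cd36 was at 0.894, 0.731 and 1.32 TPM in WT and at 1.72, 1.27 and 1.78 TPM in KO samples, with a log2 fold change of 0.39 (SE 0.20, limma adjusted p = 0.181). KO 7 lay under WT 8 for Cd36.

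The phagocyte oxidase genes Cybb and Ncf1, a membrane and a cytosolic subunit of the enzyme that makes superoxide, were both under the filter. Cybb was at 0.404, 0.137 and 0.363 TPM in WT 4, 5 and 8 and at 0.521, 0.444 and 0.733 TPM in KO 3, 7 and 10. Its groups did not overlap, though on 7 to 20 reads per WT sample and 22 to 38 per KO sample. Ncf1 was at 0.371, 0.467 and 0.374 TPM in WT and at 0.375, 0.620 and 1.44 TPM in KO samples. The groups overlapped for Ncf1, and 11.1% of its exon length is shared with the opposite-strand gene Gtf2ird2. Pf4, a chemokine gene of platelets and of some tissue macrophages, was at 0.685, 1.42 and 2.34 TPM in WT and at 1.72, 2.00 and 6.53 TPM in KO samples. Pf4 stood out in KO 10 alone, at 3.51 times the mean of the other KO samples, and its log2 fold change was 0.72 (SE 0.39, limma adjusted p = 0.197). Without KO 10 the value for Pf4 was 0.26, and without WT 4 it was 0.47.

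Markers differed in how far KO 10 departed from KO 3 and KO 7. The ratio of KO 10 to the mean of the other KO samples had a median of 1.87 and ran from 1.08 for Aif1 to 4.25 for Fcgr1, both of which rest on few reads. For the called genes it was 2.01 for Lyz2 and 1.90 for C1qc. The labels give no batch, date or quality measure by which KO 10 could be set apart, and its depth of 24061476 reads was within the range of the others.

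A further list of 77 myeloid genes was examined, of which 73 matched a row, 26 were tested and 6 of these passed the filter only through KO. In limma's fit, 2 were called higher, among them Alox5, and 0 lower, against 1.64% and 9.03% of all tested genes. Without the 6 genes that passed only through KO, Alox5 among them, 1 of 20 was called higher. Voom also called 0 lower, against 12.6% of the genes it tested. At an unadjusted p under 0.05, 10 were higher and 3 lower, against 12.2% and 27.2% of all tested genes. Itgb2, Clec4n, Alox5 and Stab1, among those 10, were tested only because of their KO level, so they add no independent weight to that count. Alox5 (ENSMUSG00000025701.12), the 5-lipoxygenase gene of leukotriene synthesis in leukocytes, was at 0.150, 0.139 and 0.154 TPM in WT 4, 5 and 8 and at 2.24, 1.28 and 1.53 TPM in KO 3, 7 and 10. Alox5 was tested only because of its KO level, on 5 to 6 reads per WT sample and 51 to 67 per KO sample. KO 3 and not KO 10 was its highest sample, and its log2 fold change was 1.21 (SE 0.22, limma adjusted p = 0.00331). Leaving out any 1 of the 6 samples put the adjusted p of Alox5 between 0.00732 and 0.0166, beyond the threshold. The log2(TPM + 1) scale understates this difference, for the ratio of means was 11.4, and voom on recovered reads gave a log2 fold change of 3.37 (adjusted p = 0.000764).

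At an adjusted p under 0.05, 6 of these genes were higher and 1, Sirpa, lower, against 4.69% and 16.6% of all tested genes. Leaving aside the 6 genes that passed the filter only through KO, 4 of 20 were higher at that threshold. All KO samples exceeded all WT samples for 24 of the 73, against 10.4% of all genes in the table, and lay below them for 2, Syk and Sirpa, against 19.4%. Genes named from here on outside the 32 markers were chosen after their values had been seen. Sirpa, an inhibitory receptor gene of myeloid cells that is also expressed outside them, was at 11.5, 14.8 and 13.2 TPM in WT 4, 5 and 8 and at 6.30, 8.47 and 10.9 TPM in KO 3, 7 and 10. For Sirpa the log2 fold change was -0.59 (limma adjusted p = 0.0363). Stab1, a scavenger receptor gene of tissue macrophages that also entered the test only through KO, was at 0.804, 1.01 and 1.15 TPM in WT and at 2.30, 2.55 and 4.27 TPM in KO samples, with a log2 fold change of 1.00 (limma adjusted p = 0.00791). The median log2 fold change of the 26 tested genes was 0.34, and 0.10 without those 6, beside 0.82 for the tested markers, and the list holds genes such as Arhgdib, at 89.1 to 162.6 TPM, which stood above every marker in each of the 6 libraries.

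Ligands for myeloid cells gave 0 calls among 7 tested genes of 11 listed, against the 1.64% and 9.03% of all tested genes called higher and lower, with 2 higher and 1 lower at an unadjusted p under 0.05 (12.2% and 27.2% of all tested genes). Csf1, the ligand of CSF1R, was abundant at 425.8, 340.7 and 313.8 TPM in WT 4, 5 and 8 and at 282.6, 271.4 and 288.5 TPM in KO 3, 7 and 10. Every KO sample was below every WT sample for Csf1, opposite to the direction of Csf1r. Its log2 fold change of -0.35 (SE 0.12, limma adjusted p = 0.0598) did not pass the threshold. Il34, the other ligand of CSF1R, had every KO sample above every WT sample. The log2 fold change of Il34 was 0.15 (SE 0.16, limma adjusted p = 0.519). The 2 genes higher at the unadjusted p were Gas6 and Cd47, with log2 fold changes of 0.44 and 0.31 (limma adjusted p = 0.0527 and 0.106). The KO mean lay above the WT mean for 7 of 10 matched ligands, against 47.8% of all genes in the table.

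Markers of other lineages were measured to see which of them moved with the myeloid genes. In limma's fit, 0 of the 15 tested fibroblast, 4 endothelial, 5 epithelial, 3 platelet lineage, 2 adipocyte, 2 skeletal muscle and 4 neural and Schwann markers were called. Of all tested genes, 1.64% were called higher and 9.03% lower. At an unadjusted p under 0.05, higher values were found for 3 fibroblast, 1 endothelial, 2 epithelial, 1 platelet lineage and 1 neural marker, and lower values for 0, against 12.2% and 27.2% of all tested genes. The median log2 fold changes were 0.09 for fibroblast, 0.01 for endothelial, 0.32 for epithelial, 0.22 for platelet lineage, -0.27 for adipocyte, -0.16 for skeletal muscle and 0.11 for neural markers. Of the erythroid, lymphoid, mast cell and granulocyte, and melanocyte markers, 5 of 12, 4 of 11, 6 of 12 and 3 of 5 matched a row and 0 reached the filter. Summed lymphoid markers were at 0 to 1.14 TPM in WT and at 0.301 to 0.496 TPM in KO samples, and summed melanocyte markers at 0.377 to 0.538 and 0.586 to 0.623 TPM. Erythroid markers summed to 0.998 to 1.59 TPM in WT and 0.848 to 1.38 TPM in KO samples. Mast cell and granulocyte markers summed to 0.836 to 1.32 and 1.21 to 2.26 TPM. Epithelial markers summed to 73.2 to 82.0 TPM in WT and 85.2 to 108.7 TPM in KO samples. That sum was higher in each KO library, with KO 3 and not KO 10 the highest. Most of it was the keratin genes Krt18, at 38.6 to 63.8 TPM over the 6 samples, and Krt19, at 19.8 to 31.8 TPM. Epcam, at 0.0480 to 0.612 TPM, and Cdh1, at 0.0249 to 0.135 TPM, were under the filter. Krt8, a keratin gene of simple epithelia, had the largest log2 fold change of the tested epithelial markers, 0.61 (limma adjusted p = 0.0446). It was at 1.58, 0.932 and 1.83 TPM in WT 4, 5 and 8 and at 2.25, 3.00 and 2.86 TPM in KO 3, 7 and 10. The other tested values were 0.36 for Krt18, 0.32 for Cldn3, 0.25 for Krt19 and -0.20 for Cldn4. Cldn3 was tested only because of its KO level. For Cldn4, KO 10 was the lowest of the 6 samples, at 3.52 TPM. Endothelial sums were 4.30 to 8.07 TPM in WT and 5.07 to 7.34 TPM in KO samples, adipocyte sums 3.34 to 6.43 and 3.26 to 3.76 TPM, skeletal muscle sums 357.1 to 444.0 and 321.3 to 401.7 TPM, and neural and Schwann sums 59.7 to 78.7 and 70.95 to 99.9 TPM. The platelet lineage sum was 59.3 to 64.8 TPM in WT and 69.8 to 75.3 TPM in KO samples, most of it the integrin gene Itgb3, which is not restricted to platelets. The part of culture composition in the myeloid difference was not tested.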

How the data were processed

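RNA sequencing of 6 samples was analysed from 1 table of 26898 genes. The authors aligned reads to mm10 with STAR per the study methods, whereas the submitters' processing notes name Bowtie 0.12.2, and the counting program is not given in the sources used here. The authors deposited expression as TPM. The table also holds the authors' deposited log2 fold change and their deposited adjusted p-value for KO against WT, and neither was used. Multiplied by exon length (GENCODE M21, 26876 gene IDs matched), 100.0% of the values checked were whole reads at a tolerance of 0.05. Depth was read from these.

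Genes with a group mean of at least 1 TPM were compared on log2(TPM + 1) in limma 3.58.1 (R 4.3.3), using its variance trend without covariates, and p-values were Benjamini-Hochberg adjusted over 14799 genes. Fold changes on this scale understate those of low genes. The fit was tested on simulated data. At a mean of 1 to 5 TPM, limma on log2(TPM + 1) recovered 0% of 2-fold and 71.5% of 3-fold changes, and voom 54.5% and 83.5%. Over 5 TPM, limma recovered 74.5% and 99%. At 3-fold, limma also made 8 false calls in the simulation at 1 to 5 TPM and 7 in that over 5 TPM. The simulation gave every gene the same variability between samples and set no library apart as KO 10 was. Real KO values spread more, with an SD of 32.3 TPM at a mean of 73.6 TPM for Lyz2. The simulated shares are therefore not the power for these markers. Named are the 31 matched markers, Kansl1 and the called genes of the other lists, of which 1 is not reported here. Uncalled genes of those lists (Sirpa, Syk, Stab1, Arhgdib, Itgb2, Clec4n, Csf1, Il34, Gas6, Cd47, Itgb3, Krt8, Krt18, Krt19, Epcam, Cdh1, Cldn3 and Cldn4) were named after their values had been seen. The members, lists and the 1 TPM filter were chosen with earlier results of these data known, among them that the fit of all genes calls fewer. The motifs were likewise chosen with the list known. Alternatives were pseudocounts of 0.1 and 0.5, no filter, 10 TPM, median-of-ratios scaling, no trend, adjusted p under 0.05, voom on recovered reads and each sample left out. The labels give no batch. Exon overlaps were found with bedtools 2.31.1.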

Additional observations from a re-analysis of the deposited data

How the results depend on the processing

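The number of called genes was 1579 and moved to 341 with all genes tested, to 3147 at an adjusted p under 0.05, to 2457 with voom on recovered reads and to 2575 with voom on genes with at least 10 reads in 3 samples, an alternative chosen after seeing the data; leaving out 1 sample gave 758 to 1081. The 2 markers called higher became 0 with all genes tested, 1 with median-of-ratios scaling and 12 at an adjusted p under 0.05, and 1 to 2 when 1 sample was left out. Of all tested genes, 1.64% were called higher, and this share moved to 3.2% with median-of-ratios scaling, 4.17% with a filter of 10 TPM and 3.98% with voom. It was 0.204% with all genes tested and 4.69% at an adjusted p under 0.05. Leaving out 1 sample put it between 0.568% (without KO 7) and 1.7% (without WT 4). The marker count was 3 with a pseudocount of 0.1 (Ctss added) and 3 with a filter of 10 TPM (Lyz2, with Cd68 and C1qb, which passed that filter only through KO; C1qc was not tested there). The count of 2 without KO 3 is Lyz2 with Cd68 in place of C1qc. Lyz2 was called in 14 of its 15 other fits and C1qc in 8 of 14. No marker was called lower in any fit run. The other myeloid genes called higher became 0 with all genes tested (0.204% of all genes) and 0 with a filter of 10 TPM (4.17%). Their count became 6 at an adjusted p under 0.05 (4.69%) and 0 to 1 when 1 sample was left out (0.568% to 1.7%). Those called lower became 1 with 10 TPM (14.1% of all tested genes) and 1 at an adjusted p under 0.05 (16.6%). The fits differ in the genes, samples or threshold used, so their counts are not directly comparable, and why the counts moved was not tested. The log2 fold changes that reversed were those of Fcgr3 (-0.039) and Cd14 (-0.030) without KO 10, and of Coro1a without WT 4 (-0.026), KO 7 (-0.013) and KO 10 (-0.071), where leaving out 1 sample in turn gave up to 0.421 for Fcgr3, 0.181 for Cd14 and 0.337 for Coro1a. Without Lyz2, Cd36 and Gpnmb, the mean summed marker level was 43.36 TPM in WT and 90.94 TPM in KO MEFs. Other settings shifted the median over tested genes by at most 0.092 (log2). No paired analysis was possible because WT 4, 5 and 8 and KO 3, 7 and 10 share no replicate numbers. Depth limits the 11 markers under the filter, which had 0 to 47 reads in any sample.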
